A study of Mus musculus with 4 samples.

Results

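The miR-17 seed family comprises the 5p miRNAs that carry the seed AAAGUGC at bases 2 to 8. The members are mmu-miR-17-5p, mmu-miR-20a-5p, mmu-miR-20b-5p, mmu-miR-93-5p, mmu-miR-106a-5p and mmu-miR-106b-5p. They were chosen by name, as the guide arms with this seed encoded by 3 related gene clusters. All 6 were found among the 1059 mature miRNAs of the deposited counts, and all 6 were abundant enough to be tested.

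A miRNA is cut from a hairpin by Dicer and pairs with messenger RNAs mainly through its seed, so miRNAs with the same seed share most of their predicted targets. The miR-17 family is known for repressing inhibitors of the cell cycle and mediators of cell death, Cdkn1a and Bcl2l11 among them. It is abundant in proliferating cells, embryonic neural progenitors included, and its levels usually fall as cells differentiate.

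The study asked how miRNAs act in the early telencephalon, and small RNA was sequenced from its rostral-most region at E11.5. There were 2 libraries of Rx-Dicer mutants (RxCre-DicerF/F) and 2 libraries of controls, which the sample labels call WT and the dissection protocol calls DicerF/F. In both genotypes as the protocol gives them, the Dicer alleles were thus floxed, and only the mutants carried Cre. The floxed Dicer line was kept in a C57BL/6 background and the Rx3-Cre line in a CD1 background. Cre was driven by regulatory sequences of Rax (Rx), a gene of the anterior neural fold and the retina, and its recombination in the telencephalon is regional. Tissue from cells outside the Rx lineage, such as blood and mesenchyme, thus keeps Dicer. The number of embryos in a library is not given in the sources used here. The labels do not say that the libraries of a genotype came from separate embryos or litters, so p-values measure only the spread between these libraries, which may be technical.

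The mature sequences show how close the members are to each other, which bears on how reads were assigned to them. They are given 5′ to 3′ from RefSeq (GRCm38.p6), with the seed in capitals.
mmu-miR-17-5p: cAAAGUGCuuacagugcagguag
mmu-miR-20a-5p: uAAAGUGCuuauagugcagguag
mmu-miR-106a-5p: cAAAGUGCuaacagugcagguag
mmu-miR-20b-5p: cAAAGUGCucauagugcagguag
mmu-miR-106b-5p: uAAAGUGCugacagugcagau
mmu-miR-93-5p: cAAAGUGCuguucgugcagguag

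All 6 members had a reference sequence, and they were identical at 15 of the first 21 positions. The variable positions, counted from 1 at the 5′ end, were 1, 10, 11, 12, 13 and 20, all outside the seed. From miR-17 to miR-106a there was 1 substitution, U10A. From miR-17 to miR-20a there were C1U and C12U, and from miR-17 to miR-20b U10C and C12U. miR-106b differed from miR-17 by C1U, U10G and G20A over its 21 bases. miR-93 was the most distant from miR-17, with U10G, A11U, C12U and A13C. The mismatch setting of the read counting is not given in the sources used here, so a read may have been counted on more than 1 member. How many reads the members share was not tested.

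The family is encoded at 3 places, all given on GRCm38 with GENCODE annotation. The miR-17 cluster holds 6 hairpins within 836 bases, at chr14:115043671-115044506 on the plus strand, inside an exon of the long non-coding host transcript Mir17hg. Mir17 and Mir20a are separated there by 402 bases. The miR-106a cluster holds 6 hairpins within 875 bases, at chrX:52741693-52742567 on the minus strand. Its first hairpin, Mir106a, overlaps part of an exon of the non-coding transcript Kis2, and Mir20b follows 310 bases further on, outside the exons and introns of that annotation. The miR-106b cluster holds 3 hairpins within 498 bases, at chr5:138165321-138165818 on the minus strand. Its hairpins lie in introns of Mcm7, which encodes a subunit of the replicative helicase, and Mir93 and Mir25 lie in addition within an exon of 1 Mcm7 transcript. Mir106b and Mir93 are 126 bases apart.

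The hairpins of miR-17 and miR-106a, the closest pair of members, are shown to set their nearly identical mature arms, printed in capitals, beside the rest of each precursor (RefSeq, GRCm38.p6).
Mir17: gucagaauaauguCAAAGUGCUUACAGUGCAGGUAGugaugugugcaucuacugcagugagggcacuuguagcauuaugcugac
Mir106a: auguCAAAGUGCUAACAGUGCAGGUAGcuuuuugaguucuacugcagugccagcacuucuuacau

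The mature arm spans bases 14 to 36 of the 84-base Mir17 hairpin and bases 5 to 27 of the 65-base Mir106a hairpin.

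The libraries held 651031 and 516517 counts on mature miRNAs in Rx-Dicer mutants 1 and 2, and 1299067 and 1133553 counts in controls 1 and 2. Levels are given as scaled CPM, which are CPM (counts divided by the library total and brought to a common size) after edgeR's TMM scaling. TMM factors were 1.17 and 1.14 in the mutants and 0.926 and 0.814 in the controls. A level of this kind is a proportion, and a change common to every miRNA in the tissue would leave it as it was. In such bulk tissue, fewer cells of a type and less RNA per cell cannot be told apart.

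The family as a whole took a larger share of the miRNA counts in both mutant libraries than in both control libraries. Its summed counts were 48316 and 44675 in the mutants, against 58699 and 57222 in the deeper controls. As a share of the library this was 7.42% (95% Wilson interval 7.36 to 7.49) and 8.65% (8.57 to 8.73) in mutants 1 and 2. In controls 1 and 2 it was 4.52% (4.48 to 4.55) and 5.05% (5.01 to 5.09). The intervals cover counting error only and leave out the spread between libraries. Reads copied by PCR are not independent molecules, so the intervals may be too narrow even for counting error. The difference of the mean shares was 3.25 percentage points, with means of 8.04 ± 0.868% in mutants against 4.78 ± 0.374% in controls (SD, n = 2).

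After TMM scaling the groups lay much closer together. The family sum was 63509 and 76177 scaled CPM in mutants 1 and 2, and 48783 and 62039 in controls 1 and 2. The lower mutant value was thus only just above the higher control value. The ratio of the means was 1.26 (log2 0.33), and it turned to log2 −0.076 when libraries were scaled to equal summed counts of miR-486a-5p, miR-144-5p and miR-451a, which mark red cells. Leaving out 1 library at a time gave log2 values of 0.21 to 0.48. No test was made of the sum.

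The share was also set against the counts of miR-9-5p and let-7. miR-9-5p, a miRNA of neural progenitors and neurons, took 28.2% and 29.4% of the counts in the mutants and 31.5% and 42.6% in the controls. The family sum was 26.4% and 29.4% of the miR-9-5p count in mutants, and 14.4% and 11.8% in controls. Relative to summed let-7, the family had 1.97 and 2.26 counts per let-7 count in mutants and 0.520 and 0.892 in controls. Summed let-7 itself was lower in mutants, with 32270 and 33694 scaled CPM against 93812 and 69519 in controls (log2 −1.31), a larger difference than that of the family. Neither ratio depends on the scaling. With miR-9-5p left out of the library total the difference in the family's share was 3.60 percentage points, and with the let-7 rows left out it was 3.20, against 3.25 with all miRNAs. Leaving rows out shrinks the total and raises the share of every other miRNA. These differences thus stand on different totals, and their sizes cannot be compared with each other.

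Within the family, the order of the levels was the same in the means of both genotypes. miR-20a was highest, at rank 7 and 5 among the miRNAs of mutants 1 and 2 and rank 15 and 9 in controls 1 and 2. It made up 41.5% and 40.1% of the family counts in mutants and 38.4% and 39.6% in controls. miR-93 and miR-17 followed with about equal levels. miR-93 made up 24.7% and 24.2% in mutants and 27.4% and 27.5% in controls, and miR-17 made up 23.0% and 24.6% in mutants and 24.3% and 24.2% in controls. Their mean levels differed by less than 1 SD in each genotype, and mutant library 2 had miR-17 above miR-93. miR-20b, miR-106a and miR-106b were lower by a wide margin. miR-20b made up 6.27% and 6.33% in mutants and 5.55% and 4.77% in controls. The corresponding shares of miR-106a were 3.05% and 3.28% against 2.81% and 2.31%, and those of miR-106b were 1.44% and 1.39% against 1.55% and 1.63%. A level counted from small RNA reads also depends on how well each sequence is ligated and amplified, so the order between members is an order of counts.

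**Figure D1:**
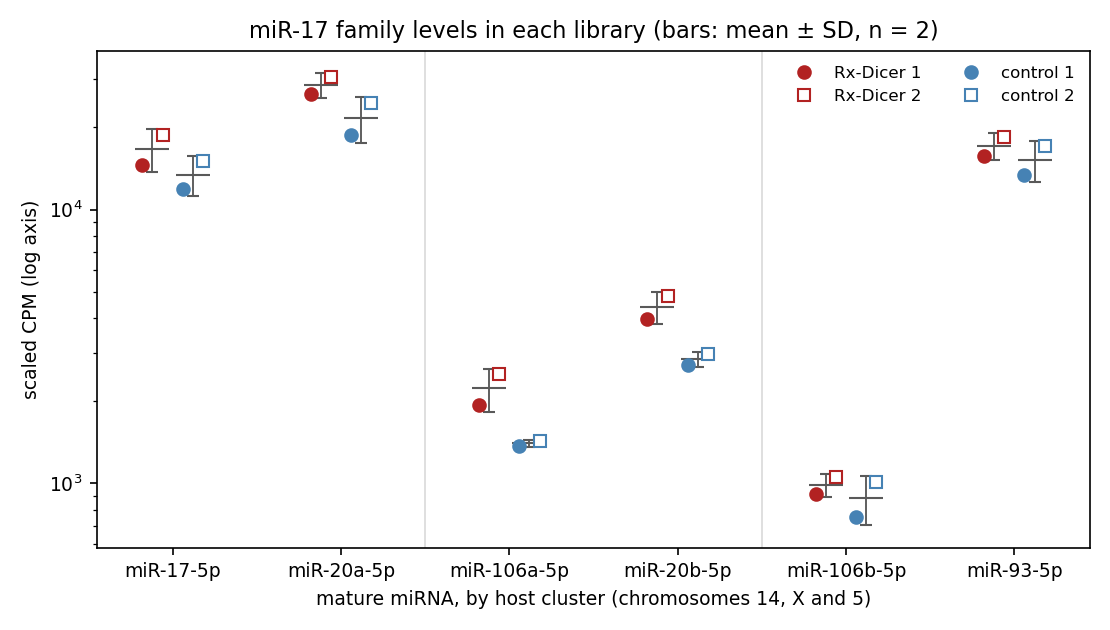
Scaled CPM (log axis) of each miR-17 family member in the 4 libraries, ordered by host cluster, with Rx-Dicer mutants in red and controls in blue. Bars give the mean ± SD (n = 2). The groups do not overlap for miR-20a, miR-106a and miR-20b and overlap for the other 3. Over all 274 miRNAs tested, both mutants were above both controls for 49 (17.9%). With scaling to equal red-cell miRNAs the fold changes of miR-17, miR-20a, miR-93 and miR-106b turn negative.

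Each member was then compared between genotypes by edgeR's quasi-likelihood test, fitted to the 274 miRNAs that reached 10 counts in 2 or more libraries. Adjusted p-values are Benjamini-Hochberg values over all 274, with 0.05 as threshold. With TMM scaling, the miR-106a cluster on the X chromosome gave the largest differences of the family. miR-106a, the X-linked counterpart of miR-17, had 1474 and 1466 counts in mutants 1 and 2 and 1652 and 1320 counts in controls 1 and 2. As scaled CPM these were 1938 and 2500 in mutants and 1373 and 1431 in controls. Both mutant libraries were above both control libraries, and the controls lay close together. The means were 2219 ± 398 and 1402 ± 41.2 (SD, n = 2 each). The log2 fold change was 0.66 ± 0.26 (SE), with an edgeR adjusted p of 0.473.

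miR-20b, the counterpart of miR-20a in this cluster, had 3027 and 2829 counts in mutants and 3260 and 2731 in controls. Its levels were 3979 and 4824 scaled CPM in mutants and 2709 and 2961 in controls. Again the groups did not overlap. The means were 4401 ± 598 and 2835 ± 178 (SD, n = 2 each). This gave a log2 fold change of 0.63 ± 0.25 (SE), with an edgeR adjusted p of 0.473. Neither miRNA passed the threshold, and both fold changes were above 0 under every scaling, test and filter tried. Leaving out 1 library at a time gave log2 fold changes of 0.48 to 0.84 for miR-106a and 0.50 to 0.77 for miR-20b.

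The miR-17 cluster on chromosome 14, which supplied most of the family counts, differed less. miR-17 had 11097 and 10998 counts in mutants and 14249 and 13847 in controls, or 14586 and 18753 scaled CPM against 11842 and 15013. Mutant 1 lay below control 2, so the groups overlapped. Its means were 16670 ± 2946 and 13427 ± 2242 (SD, n = 2 each). The log2 fold change was 0.31 ± 0.27 (SE), with an edgeR adjusted p of 0.722.

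miR-20a had 20066 and 17936 counts in mutants and 22541 and 22636 in controls. Its levels were 26376 and 30583 scaled CPM in mutants and 18733 and 24541 in controls. The groups did not overlap, but control 2 was nearer to mutant 1 than to control 1. The means were 28480 ± 2975 and 21637 ± 4107 (SD, n = 2 each). This gave a log2 fold change of 0.40 ± 0.26 (SE), with an edgeR adjusted p of 0.606. With scaling to equal red-cell miRNAs the log2 fold changes of miR-17 and miR-20a were −0.10 and −0.011. Leaving out 1 library moved that of miR-17 to 0.49 without mutant 1, 0.13 without mutant 2, 0.19 without control 1 and 0.45 without control 2, and that of miR-20a to between 0.25 without control 1 and 0.56 without control 2.

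The miR-106b cluster in Mcm7 gave the smallest differences with TMM scaling. miR-93 had 11955 and 10827 counts in mutants and 16089 and 15757 in controls, or 15714 and 18462 scaled CPM against 13371 and 17083. The groups overlapped, since mutant 1 was below control 2. Its means were 17088 ± 1943 and 15227 ± 2625 (SD, n = 2 each). This gave a log2 fold change of 0.17 ± 0.26 (SE), with an edgeR adjusted p of 0.859.

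miR-106b, the least abundant member, had 697 and 619 counts in mutants and 908 and 931 in controls. Its levels were 916 and 1055 scaled CPM in mutants and 755 and 1009 in controls. These groups overlapped as well. The means were 986 ± 98.5 and 882 ± 180 (SD, n = 2 each). The log2 fold change was 0.16 ± 0.26 (SE), with an edgeR adjusted p of 0.859. Scaling to equal red-cell miRNAs turned the log2 fold changes of miR-93 and miR-106b to −0.24 and −0.25, while those of miR-106a and miR-20b were then 0.24 and 0.22. Fitting without a count minimum moved miR-93 to 0.0022 and turned miR-106b to −0.0042. Both values depended on single libraries. For miR-93 the log2 fold change was 0.28 without mutant 1, 0.059 without mutant 2, 0.038 without control 1 and 0.31 without control 2. In the same order it was 0.26, 0.069, 0.0032 and 0.34 for miR-106b.

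Of the 6 members, 0 passed an adjusted p of 0.05 in edgeR's quasi-likelihood test over the 274 miRNAs tested, and 0 passed in DESeq2's Wald test. Over all 274 miRNAs edgeR called 7 lower in mutants (2.55%) and 0 higher (0%), and DESeq2 called 11 lower with 0 higher. With the unadjusted p under 0.05 as the limit, edgeR gave 3 of 274 as higher (1.09%), and 2 of these were members, miR-106a and miR-20b (unadjusted edgeR p-values 0.0390 and 0.0397). The third was miR-18b-5p, from the same X-linked cluster. At this limit 23 miRNAs were lower, and 0 of them were members. The number higher depended on the scaling and the filter, with 51 (4 members) for library totals only, 0 for equal red-cell miRNAs, and 7 (0 members) for no count minimum. DESeq2 gave 5 miRNAs as higher at an unadjusted p under 0.05, of which 2 were members. Without any 1 of the 4 libraries, 0 members were under an unadjusted p of 0.05 in edgeR.

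Both mutant libraries were above both control libraries for 3 of the 6 members, against 49 of the 274 miRNAs tested (17.9%). All 6 members had a log2 fold change above 0 with TMM, with a median of 0.35, while 149 of the 274 tested miRNAs were above 0, with a median of 0.04. Scaling moved these medians together. With library totals only, the median of all tested miRNAs was 0.44 and the members ranged from 0.58 to 1.07. With equal red-cell miRNAs the median was −0.37 and the members ranged from −0.25 to 0.24. All 6 members lay above the median of the tested miRNAs under each of these scalings, and 4 of 6 did without control library 1.

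Among abundant miRNAs most fold changes were below 0. Of the 69 tested miRNAs with at least as many counts as miR-106b, 28 had a log2 fold change above 0, and the median over the 69 was −0.15. Ranked from the highest fold change among these 69, miR-106a was at place 2, miR-20b at 3, miR-20a at 6, miR-17 at 13, miR-93 at 17 and miR-106b at 19. This class was defined after the values were seen. Over all 274 tested miRNAs the places were 16 for miR-106a, 17 for miR-20b, 43 for miR-20a, 72 for miR-17, 104 for miR-93 and 107 for miR-106b.

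Ratios of counts inside a library compare the members without any scaling. Between members of the same cluster the ranges of the genotypes overlapped. miR-20a had 1.81 and 1.63 counts per miR-17 count in mutants and 1.58 and 1.63 in controls. miR-20b had 2.05 and 1.93 counts per miR-106a count in mutants and 1.97 and 2.07 in controls, and miR-93 had 17.2 and 17.5 per miR-106b count in mutants and 17.7 and 16.9 in controls. The log2 differences between genotypes were 0.09, −0.02 and 0.00028. With libraries left out 1 at a time they ranged from 0.02 to 0.17 for miR-20a to miR-17, from −0.066 to 0.023 for miR-20b to miR-106a, and from −0.033 to 0.033 for miR-93 to miR-106b. Exact permutation tests over libraries gave p = 0.667, 0.667 and 1 for the 3 pairs (two-sided), where 2 libraries against 2 cannot go below 0.33, so these p-values do not show that the ratios were equal.

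Between clusters the genotypes did not overlap. The 2 members of the miR-106a cluster had 0.144 and 0.148 counts per count of the 2 members of the miR-17 cluster in mutants, and 0.134 and 0.111 in controls. This was 1.20-fold higher in mutants (log2 difference 0.27). Per count of the miR-106b cluster, the miR-106a cluster had 0.356 and 0.375 counts in mutants and 0.289 and 0.243 in controls, which was 1.38-fold higher (log2 difference 0.46). The miR-106b cluster had 0.406 and 0.396 counts per count of the miR-17 cluster in mutants and 0.462 and 0.457 in controls, a log2 difference of −0.20. Measured against controls, the X-linked pair was thus highest in mutants relative to the rest of the family, followed by the chromosome 14 pair and then the Mcm7 pair. Each of these ratios between clusters is fixed by the other 2, so they are not independent results.

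Each of these 3 ratios had p = 0.33 in the exact permutation test (two-sided), the smallest this design allows, so none could pass 0.05. Adjusted over the 6 ratios computed (Benjamini-Hochberg), the exact p-values were 0.667 for the 3 ratios between clusters and 0.8, 0.8 and 1 for the others. When libraries were left out 1 at a time, these log2 differences ranged from 0.13 to 0.40, from 0.34 to 0.59 and from −0.22 to −0.18 in the order above. The spread between the control libraries was large for both ratios of the miR-106a cluster.

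**Figure D2:**
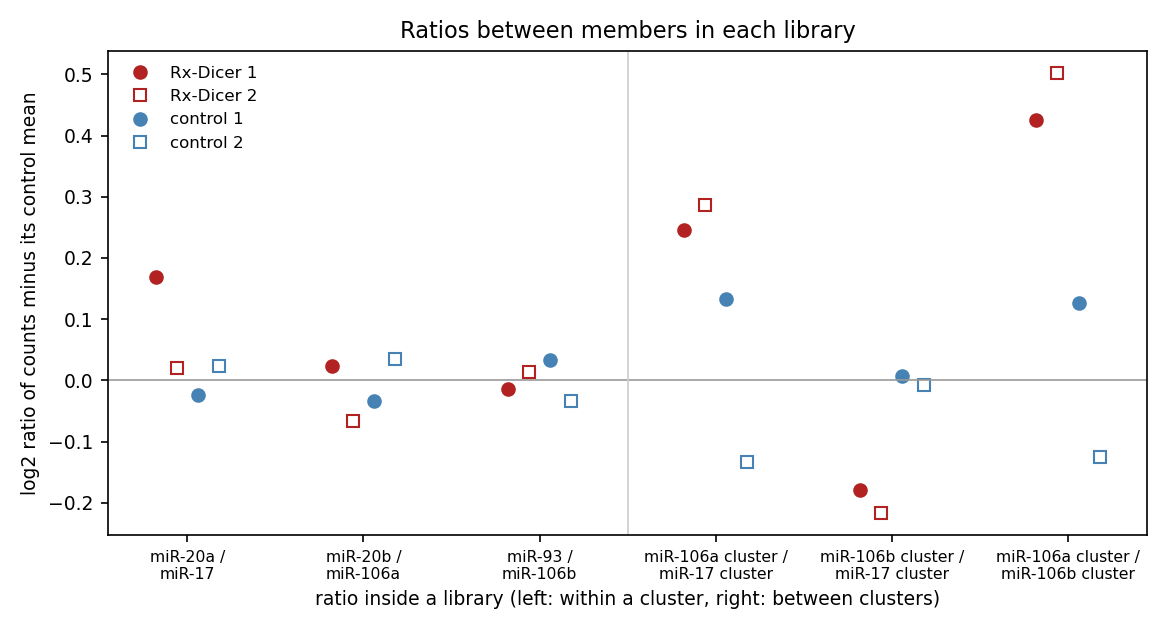
Log2 ratio of counts between family members inside each library, minus its mean in controls, with Rx-Dicer mutants in red and controls in blue. Ratios within a cluster (left) overlap between genotypes, and ratios between clusters (right) do not, with the miR-106a cluster higher and the miR-106b cluster lower in mutants relative to the miR-17 cluster.

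Because miR-106a differs from miR-17 by 1 base (U10A), its counts were also set against those of miR-17. miR-106a had 13.3% and 13.3% of the miR-17 count in mutants and 11.6% and 9.53% in controls. The share was higher in both mutants than in both controls. How many reads miR-106a shares with miR-17 was not tested. With miR-17 and miR-106a summed into 1 row, 0 members passed the threshold in edgeR.

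The hairpins of each cluster also hold miRNAs of other seeds, and 9 of their 5p arms have rows. Of these, 6 were tested and 0 passed the threshold in edgeR. miR-18a-5p, between miR-17 and miR-20a, had 864 and 1047 scaled CPM in mutants and 605 and 861 in controls, and its log2 fold change was 0.38 (edgeR adjusted p = 0.648). The groups were separated only narrowly. miR-18b-5p, between miR-106a and miR-20b, had 603 and 730 in mutants and 389 and 491 in controls, and its log2 fold change was 0.60 (edgeR adjusted p = 0.482). Each of these lay close to the values of the family members that flank it. miR-18a and miR-18b are near-identical to each other too, so they may share reads as the family members may.

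The difference of the arms further along from the family members was not tested. miR-92a-1-5p, at the end of the miR-17 cluster, had a log2 fold change of 0.12, and miR-92a-2-5p and miR-363-5p, at the end of the miR-106a cluster, had 0.30 ± 0.43 (SE) and 0.05. Single libraries changed the direction of some of these values. miR-92a-1-5p was at −0.31 without control 2 and 0.71 without control 1, and miR-363-5p at −0.16 without control 2 and 0.29 without control 1. Leaving out 1 library at a time, miR-92a-2-5p ranged from 0.020 without mutant 2 to 0.60 without control 1, the latter near the 0.61 of miR-20b in that fit. For miR-25-5p, which follows miR-93, the log2 fold change was −0.32, with 2042 counts in control 1 and 624 to 827 in the other libraries, and it turned to 0.25 without control 1. These are 5p arms, mostly the less abundant strand of their hairpins, and 0 of the 3p arms of these clusters were among the rows used here. miR-19a-5p had 0 counts in all 4 libraries. The count of miR-19b-1-5p was at most 3, and that of miR-19b-2-5p at most 1.

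**Figure D3:**
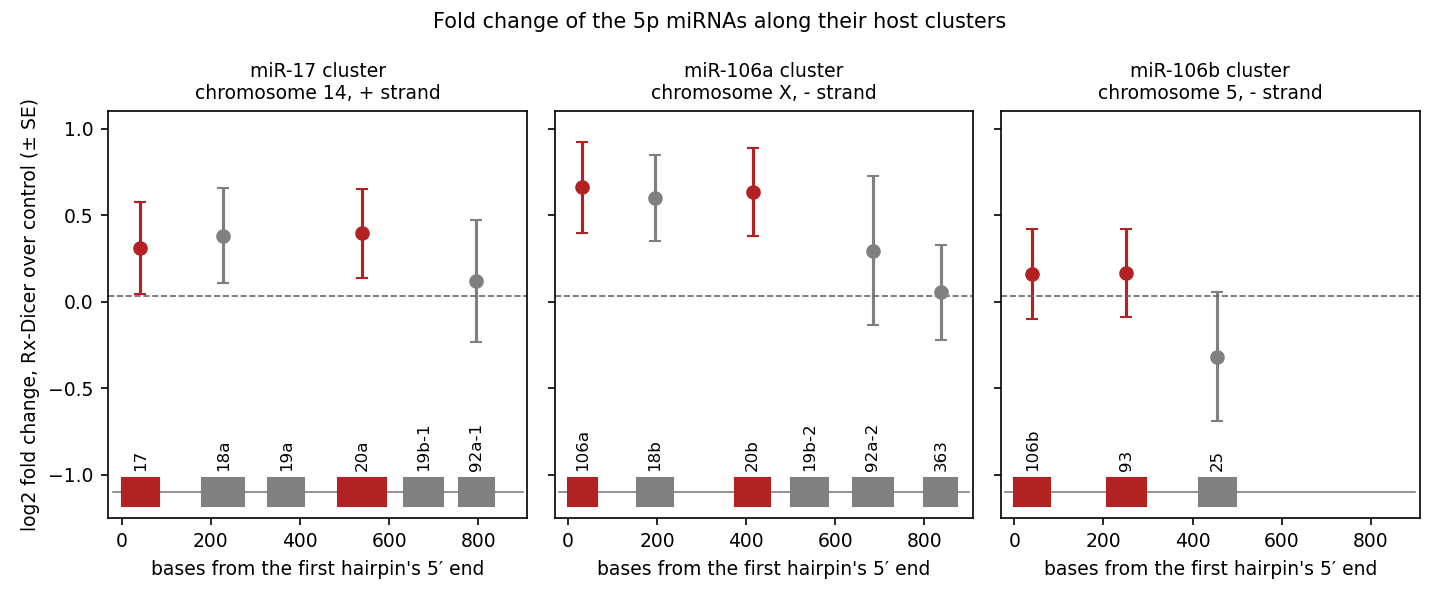
Log2 fold change ± standard error (Rx-Dicer over control, TMM scaling) of the tested 5p miRNAs at the positions of their hairpins in the 3 host clusters, drawn to scale in the direction of transcription. Family members are red and cluster neighbours grey, and the dashed line is the median of all tested miRNAs (0.04). Members of a cluster lie close together, with the miR-106a cluster highest, and with equal red-cell miRNAs the 4 members of the other clusters turn below 0.

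A search of the 1679 mature sequences in the RefSeq table for the seed AAAGUGC found 1 other miRNA with it at bases 2 to 8, miR-6383. It had 0 counts in all 4 libraries, which allows a share of up to 0.000461% and 0.000581% of the counts in mutants 1 and 2, and 0.000231% and 0.000265% in controls 1 and 2 (3 counts). Of the 1059 mature miRNAs with rows, 895 were matched by name to a sequence searched, and the other 164, of which 44 were tested, were not searched. Of 8 miRNAs with the seed moved by 1 base (AAGUGC at bases 2 to 7), miR-350-5p had a row, with 54 and 48 counts in mutants and 76 and 99 in controls. Its log2 fold change was −0.15 (edgeR adjusted p = 0.941), and the groups overlapped in scaled CPM.

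Among the 268 tested miRNAs outside the family, those nearest to the family sum in their pattern over the 4 libraries were miR-676-5p, miR-669f-5p, miR-18a-5p, miR-370-5p and miR-28a-5p. Their Euclidean distances, on centred log2 scaled CPM, were 0.085, 0.129, 0.130, 0.135 and 0.171. Some of these miRNAs had few counts. In mutants 1 and 2 and controls 1 and 2, miR-669f-5p had 14, 12, 17 and 15 counts. In the same order miR-676-5p had 43, 38, 51 and 47, and miR-370-5p had 54, 46, 66 and 58. At such counts, counting error alone can move a distance, and its part was not tested. On the same scale miR-17 and miR-20a were at 0.076 and 0.081, miR-93 and miR-106b at 0.167 and 0.179, and miR-20b and miR-106a at 0.330 and 0.380. The sum is dominated by miR-20a, miR-93 and miR-17.

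Marker miRNAs of other cell types were measured beside the family. Of 5 red-cell miRNAs named, 4 had rows and were tested, and 0 passed the threshold in edgeR. Their summed level, with the identical counts of miR-486a-5p and miR-486b-5p taken once, was 7595 and 8504 scaled CPM in mutants and 5737 and 6362 in controls. The most abundant, miR-486a-5p, had 6517 and 7373 in mutants and 5089 and 5485 in controls, and miR-451a was also higher in both mutants. miR-144-5p overlapped between genotypes, with 18.4 and 35.8 in mutants and 19.1 and 41.2 in controls. The summed level thus differed in the same direction as the family, and 1 of the 4 tested had a log2 fold change below 0. For each red-cell count the family had 8.36 and 8.96 counts in mutants and 8.50 and 9.75 in controls, and the groups overlapped. The part of red cells in the family's difference was not tested.

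Mesenchymal miRNAs, 6 of 8 named with rows, summed to 16189 and 15958 scaled CPM in mutants and to 6606 and 15825 in controls. This sum differed in the same direction as the family (log2 ratio of the means 0.52), with control 2 just below the mutants. Of the 6 tested, 0 had a log2 fold change below 0, and 0 passed the threshold in edgeR. Control 1, where the family sum was lowest, was thus low in this list too, and its most abundant miRNA, miR-199a-5p, had 3935 there against 9787 to 10431 in the other libraries. The log2 fold change of the family sum was 0.21 without control 1 and 0.48 without control 2. Without mutant 2 it was 0.21, and without mutant 1 it was 0.46. The part of mesenchyme in the family's difference was not tested. Of the neural miRNAs, 3 of 6 named had rows, and their sum, nearly all miR-9-5p, was 241219 and 259441 in mutants and 340293 and 524411 in controls. All 3 were tested, 2 had a log2 fold change below 0, and 0 passed the threshold in edgeR. The other, miR-128-1-5p, had a log2 fold change of 0.05 and overlapped between genotypes. Of these marker lists, the neural one had the highest sum in each of the 4 libraries.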

How the data were processed

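The authors sequenced small RNA as 75-base single-end reads, checked them with FastQC, and assigned them to mature miRNAs with miRDeep2 against mm10 and miRBase. The deposited values are raw counts in 1211 rows, each of them a mature miRNA paired with a hairpin precursor. The miRDeep2 version and mismatch setting are not given in the sources used here.

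Where a mature miRNA had several rows, the row with the most counts stood for it. The 274 miRNAs that reached 10 counts in 2 or more libraries entered edgeR's quasi-likelihood test by genotype after TMM scaling, and p-values were adjusted by Benjamini-Hochberg with 0.05 as threshold. R 4.3.3 was used with limma 3.58.1 and edgeR 4.0.16. Each member has 1 row. The alternatives were other scalings, DESeq2's Wald test (DESeq2 1.42.0), other count minimums and row choices, a looser threshold, summed near-identical members, the replicate number as a block, and each library left out in turn. Ratios of counts inside libraries were compared by exact permutation tests (Python 3.11.15). The code was tested on simulated data.

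The members and lists were chosen with earlier results of these data known. Named miRNAs were the members, the other miRNAs of their clusters with rows (all 5p arms), other miRNAs with the same or the shifted seed, the 5 tested miRNAs nearest to the family sum, and miR-9-5p and let-7 for scale. Lists of marker miRNAs for neural, red, endothelial, white blood, mesenchymal, epithelial, eye, and hindbrain and trunk cells were summed. Libraries were grouped by the genotype in their labels, and no library had been deposited more than once.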

Additional observations from a re-analysis of the deposited data

How the results depend on the processing

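Of 94 values of the members' log2 fold changes under alternatives, without the summed row of miR-17 and miR-106a, 89 kept direction and side of the threshold and 5 changed sign. No alternative called a member, with 0 in edgeR and 0 in DESeq2, and the lowest adjusted p of a member was 0.188, with library totals only. With equal red-cell miRNAs the values were −0.10 for miR-17, −0.011 for miR-20a, −0.24 for miR-93, −0.25 for miR-106b, −0.024 for miR-18a, −0.32 for miR-92a-1, −0.13 for miR-92a-2, −0.37 for miR-363, −0.031 for miR-676, −0.054 for miR-669f, −0.066 for miR-370 and −0.065 for miR-28a. With no count minimum they were −0.0042 for miR-106b, −0.034 for miR-92a-1 and −0.11 for miR-363, and with library totals only 0.055 for miR-25. The log2 fold change of the family sum was 0.75 with library totals only and −0.076 with equal red-cell miRNAs. The cause was not tested.

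edgeR with TMM called 7 miRNAs lower. This number was 4 with DESeq2's size factors, 3 with upper-quartile scaling, 0 with library totals only and 11 with equal red-cell miRNAs. The Wald test of DESeq2 gave 11, or 14 on all precursor rows, and edgeR without a count minimum gave 14. Leaving out a library gave 0 to 5, with 0 without control 1 or control 2 and 1 without mutant 1. Over the same fits the log2 fold change ranged from −0.31 to 0.71 for miR-92a-1, from −0.75 to 0.25 for miR-25 and from −0.16 to 0.29 for miR-363. In such a fit the lone library of a group is assumed to vary like the other group. The cause of these differences was not tested.

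With the replicate block edgeR called 0 miRNAs lower, with 20 lower at unadjusted p under 0.05, and the block called no member. The paper calls the controls littermates of the mutants. No source used here says that a replicate number marks a shared litter, so the numbers were not taken as pairs. The deviations of same-numbered libraries had a correlation of 0.0835 over 274 miRNAs.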

Other observations

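Marker miRNAs of further cell types were also measured. The eye and sensory list, which holds the miR-183 cluster of photoreceptors and hair cells, summed to 1424 and 14156 scaled CPM in Rx-Dicer mutants 1 and 2 and to 3456 and 7055 in controls 1 and 2, with all 5 named miRNAs in rows and 0 of 4 tested passing the threshold in edgeR. Its most abundant miRNA, miR-182-5p, had 762 and 7873 in mutants and 1515 and 3576 in controls, so the genotypes overlapped. The miR-17 family sum was higher in mutant 2 than in mutant 1 as well. The part of eye tissue in either difference was not tested. miR-204-5p of the same list was lower in both mutants, with 88.1 and 81.8 against 135 and 155 (edgeR adjusted p = 0.473).

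The epithelial list summed to 235 and 808 in mutants and 201 and 427 in controls, with miR-205-5p most abundant and miR-200c-5p, miR-429-5p and miR-203-5p at 0 counts in all libraries. The endothelial list, of which miR-126a-5p had a row, gave 431 and 244 in mutants and 253 and 403 in controls. The white blood cell list gave 492 and 471 in mutants and 573 and 475 in controls, with miR-155-5p most abundant. The hindbrain and trunk list, which holds miRNAs of the Hox clusters, gave 526 and 564 in mutants and 591 and 706 in controls, with miR-10a-5p most abundant. For this sum, and for miR-10b-5p, each mutant lay below each control, while the sums of the epithelial, endothelial and white blood cell lists overlapped. In each of these 4 lists, 0 miRNAs passed the threshold in edgeR.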
